A study of Mus musculus with 12 samples.

Results

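The RNA binding and splicing factor families of mouse prefrontal cortex were taken as every gene whose symbol starts with Hnrnp, Srsf, Ddx, Dhx, Celf, Elavl, Rbfox or Nova, together with Syncrip, Ptbp1 and Ptbp2, with Ddx3x and Ddx3y left out. The rule looks at symbols only and uses no measured value. It takes 101 of the 18879 genes in the deposited matrix: 35 Ddx, 20 Hnrnp, 17 Dhx, 11 Srsf, 6 Celf, 4 Elavl, 3 Rbfox, 2 Nova and the 3 Ptbp and Syncrip genes. Single-cell RNA sequencing was done on mice of a C57BL/6 background (C57BL/6J per the labels, C57BL/6N per the study's methods) at postnatal day 0 that were homozygous mutant (HOM), heterozygous (HET) or wild type (WT) for Myt1l, a neuronal transcription factor. The mutant copies, 2 in HOM and 1 in HET, lack 7 bp of exon 6, which shifts the reading frame and ends it at residue 78, and, since the deletion was made by editing zygotes, it is present in all tissues. Cells of 2 animals per genotype were fixed in methanol, labelled with barcode oligonucleotides, pooled and captured as 1 droplet library per genotype for 5′ sequencing. Each of the 3 libraries was run 4 times, giving the 12 samples, so no replicate stands behind a genotype and no p-value is given for a genotype difference. Which of the animals a cell came from is not given in the tables analysed.

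The heterogeneous nuclear ribonucleoproteins (Hnrnp genes) coat nascent transcripts and mostly repress exons, while the serine and arginine rich factors (Srsf genes) mostly recruit the spliceosome to exons. The DEAD box (Ddx) and DEAH box (Dhx) proteins are helicases that use ATP to remodel RNA in the spliceosome, in ribosome assembly, in export and in translation. Celf, Elavl, Rbfox and Nova proteins bind short motifs in transcripts and set the exon choice, stability and transport of neuronal mRNAs. In the developing cortex Ptbp1 represses neuronal exons in progenitors, and its close relative Ptbp2 takes its place as neurons form.

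The libraries held 13688 HOM, 12072 HET and 10503 WT cells, with medians of 1330, 1099 and 1045 molecules per cell, and the members made up 1.69%, 1.67% and 1.81% of all depth-corrected values. Marker lists of microglia, endothelial and mural cells, oligodendrocytes, astrocytes, interneurons and striatal neurons were each highest in a deposited type of that kind. The cycling-cell list was highest in Ganglionic eminences [9-P]. Levels are given as CPM, the depth-corrected values of a gene per 1000000 such values in 1 library and cell type. The list of upper and deep layer neurons was highest in LayerII-IV [1-P] (4346 CPM), followed by SVZ1 (migrating) [2-P] (4175 CPM). Its mean over the layer II to VI types was lower, at 3256, 2949 and 3148 CPM in HOM, HET and WT. The layer I list was highest in Int2 [14-P] (194 CPM) among the types compared, which leave out LayerI [19-P]. In HOM, HET and WT layer II to VI neurons the microglia list summed to 34.0, 28.9 and 37.3 CPM, the endothelial list to 42.4, 48.3 and 38.1 CPM, the radial glia and astrocyte list to 1543, 1414 and 1098 CPM, the interneuron list to 967, 561 and 541 CPM and 2 red blood cell genes to 1089, 630.3 and 883 CPM; the part of these in the genotype differences was not tested. Cells with Xist numbered 1 in HOM, 2 in HET and 2121 in WT, and cells with a Y-linked transcript 2086, 1865 and 603, so the sex mix differed between the libraries and cannot be told apart from genotype. Between 199 and 240 cell barcodes were shared by each pair of libraries. Median mitochondrial content was 3.76% in HOM, 5.36% in HET and 4.89% in WT. Myt1l itself had 1038 CPM in HOM, 630.0 CPM in HET and 479 CPM in WT layer II to VI neurons; a deletion of 7 bp cannot be seen in values per gene, so this level does not check the labels. A legend of the study assigns the same cell numbers otherwise, 10503 to homozygous, 13688 to heterozygous and 12072 to wild-type animals, so no genotype matches the deposited cell table. Genotype names here follow that table, which gives every cell the same genotype as the matrix of the same deposit. Were the legend right, each genotype comparison below would set other genotypes against each other, and which of the 2 is right was not tested.

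Expression of the members spanned several orders of magnitude. Hnrnpa2b1, which takes part in splicing and in mRNA transport along processes, had the highest sum of all members, 62604, and was above 0 in 66.8% of 36263 cells. It was followed by Hnrnpab, Ddx5 and Hnrnpa1 with sums of 45566, 39889 and 38763. At the other end, 5 members had sums under 50 over all cells: Ddx4 (7), Ddx60 (9), Ddx43 (13), Dhx58 (15) and the antisense RNA Dhx58os (31), too few to describe at this depth. Hnrnpa1, Ddx19a and the pair Ddx39 and Ddx39b have closely related sequences elsewhere in the genome. How far this affects their levels was not tested.

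The deposited cell types that could be compared, those with at least 100 cells in each library, numbered 18. Among the 78 members with a sum of at least 1000, 36 had their highest mean level in Ganglionic eminences [9-P], the type with the highest level of cycling-cell markers (4210 CPM over 6 genes), a share of 46.2% where 10.6% of all 6422 genes with such a sum peaked there. Another 12 members (15.4%, beside 16.4% of all genes) peaked in Striatal inh2 [7-P], 6 in SVZ1 (migrating) [2-P], 5 in Int1 [5-P] and 4 each in LayerV-VI [12-P] and Striatal inh1 [3-P]. Cell types were named by the authors from the same gene values, so the differences between types below are descriptions and not tests.

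Neurons of layers II to VI were set against non-neural cells (Microglia, Endothelial1 and Endothelial2), against both immature astrocyte types and against Ganglionic eminences [9-P]. A member was called where it differed by at least 2-fold in the same direction in each of the 3 libraries. Over non-neural cells, 19 of 87 members passing the filter on low values were higher in layer neurons and 3 were lower, where 16.8% and 10.8% of all 9146 genes were called in those directions. The median log2 ratio was 0.52 for the members and 0.29 for all genes. Over astrocytes 15 of 90 members were higher and 1 was lower, beside 10.2% and 9.54% of all genes. Over Ganglionic eminences [9-P] 13 of 87 were higher and 16 lower, beside 17.6% and 8.32% of all genes, with a median of −0.42 for the members and 0.27 for all genes; with TMM scaling (trimmed mean of M-values) 26 were lower. The median of the members was thus below that of all genes against the cycling type, and the families divided in that contrast.

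**Figure D1:**
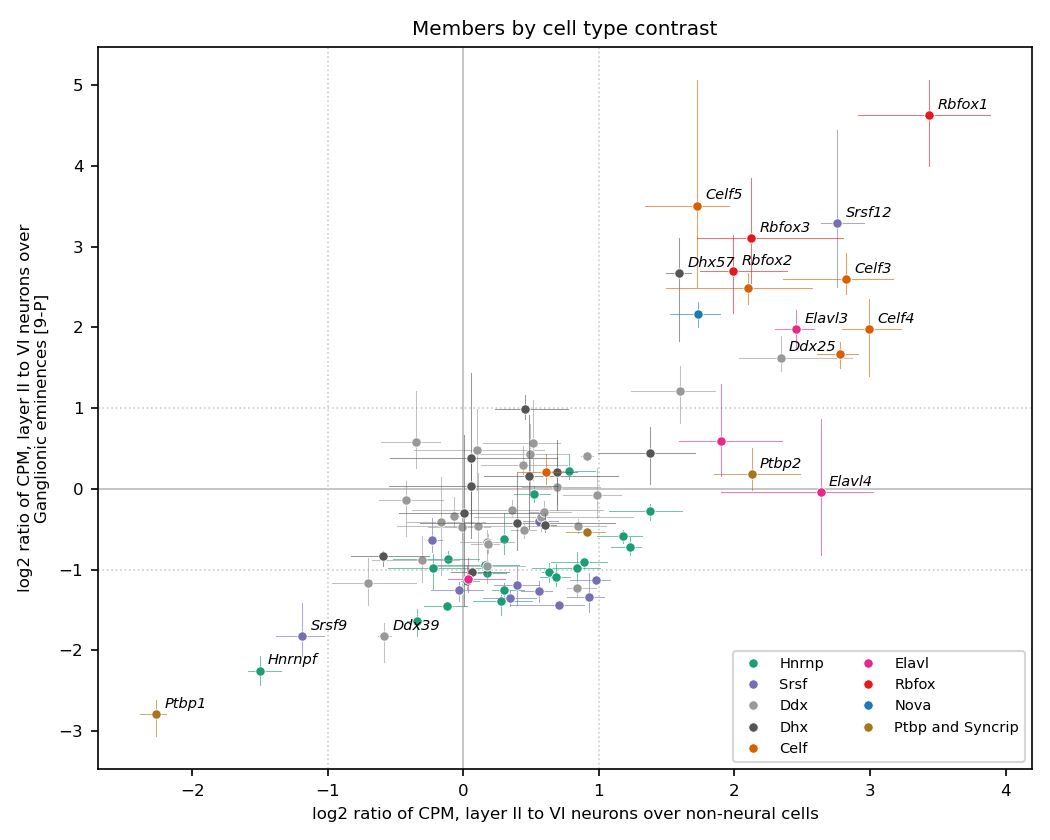
Log2 ratio of CPM between layer II to VI neurons and non-neural cells (horizontal axis) and between layer II to VI neurons and Ganglionic eminences [9-P] (vertical axis) for the members measured in both contrasts. Points are means of the 3 libraries, thin lines run from the lowest to the highest library, colours give the family, and dotted lines mark 2-fold; the Celf and Rbfox genes lie at the upper right, Ptbp1 and Hnrnpf at the lower left, and most Hnrnp and Srsf genes below 0 on the vertical axis. Ratios of genes near 0 in the comparison cells, such as Srsf12 and Celf5, depend on the added 1 CPM.

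The families with known neuronal roles carried the higher calls. All 3 Rbfox genes, which encode splicing factors that bind the motif UGCAUG, and Celf2 to Celf6 were higher in layer neurons in every one of the 3 contrasts, as were Elavl3, Nova2, Dhx57 and Srsf12, making 12 of the 87 members measured in all 3, beside 7.17% of all 8644 genes. Rbfox1 had 379.8, 295 and 276 CPM in HOM, HET and WT layer neurons, against 10.4, 17.6 and 8.86 CPM in Ganglionic eminences [9-P] and 32.2, 38.3 and 17.8 CPM in non-neural cells. All 3 layer values lay far above all 6 others, with mean log2 ratios of 4.63 and 3.44. Rbfox2 had 329, 275 and 305 CPM in layer neurons, against 36.3, 39.5 and 66.5 CPM in Ganglionic eminences [9-P], a mean log2 ratio of 2.70. Rbfox3, which encodes the neuronal nuclear antigen NeuN, had 122, 109 and 91.5 CPM in layer neurons, against 15.5, 6.59 and 14.8 CPM there. No layer value of these genes overlapped a value of the cycling type.

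The 3 Rbfox genes differed from each other in where they peaked. Rbfox1 was highest in LayerII-IV [1-P] (mean of 3 libraries 490.5 CPM, range 402 to 589), ahead of Int1 [5-P] at 360.3 CPM. Rbfox2 was highest in the migrating cells of SVZ1 (469 CPM, range 422 to 561), and Rbfox3 in LayerII-IV [4-P] (159 CPM, range 134 to 174). For each of the 3 the range of the highest type overlapped that of the next, Int1 [5-P] for Rbfox2 and Int3 [11-P] for Rbfox3. Within libraries the named type was highest in all 3 for Rbfox1, and in 2 of 3 for Rbfox2 and for Rbfox3.

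Celf proteins bind GU-rich sequences in pre-mRNA and mRNA. Celf4 had 309.5, 373 and 406 CPM in HOM, HET and WT layer neurons, against 39.2, 53.0 and 42.4 CPM in non-neural cells and 67.4, 72.5 and 154 CPM in Ganglionic eminences [9-P]. Its groups did not overlap, and its highest level was in Striatal inh2 [7-P] (862 CPM, range 799 to 979). Celf2 had 868, 776 and 782 CPM in layer neurons, against 115, 127 and 110.0 CPM in non-neural cells, and peaked in LayerV-VI [12-P] at 1078 CPM. Celf3 peaked in Int1 [5-P] (142 CPM, range 129 to 162), above the next type, Striatal inh2 [7-P], without overlap. Celf1, the member of the family found in most tissues, was the exception: its mean log2 ratio was 0.61 over non-neural cells and 0.22 over Ganglionic eminences [9-P], neither past 2-fold.

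Within the Elavl family, the neuronal Hu proteins Elavl2, Elavl3 and Elavl4 stabilise mRNAs in neurons, while Elavl1 (HuR) is found in most cells. Elavl3 had 453, 430.8 and 466 CPM in HOM, HET and WT layer neurons, against 80.9, 86.5 and 76.8 CPM in non-neural cells and 96.8, 108 and 139 CPM in Ganglionic eminences [9-P]. It was higher than every comparison type in each library. Elavl4 was higher than non-neural cells (mean log2 ratio 2.64) but its ratio to Ganglionic eminences [9-P] was 0.87, −0.17 and −0.82 in HOM, HET and WT, so the libraries disagreed in sign. Elavl2 and Elavl4 were highest in Int1 [5-P] (233 and 181.5 CPM) and next in SVZ1 (migrating) [2-P] (209 and 180.5 CPM), with overlapping ranges. Elavl1 went the other way, with a mean log2 ratio of 0.03 to non-neural cells and −1.12 to Ganglionic eminences [9-P], where its mean was highest (139 CPM, range 109 to 159), overlapping Oligodendrocytes [16-P] (131 CPM, range 102 to 165).

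**Figure D2:**
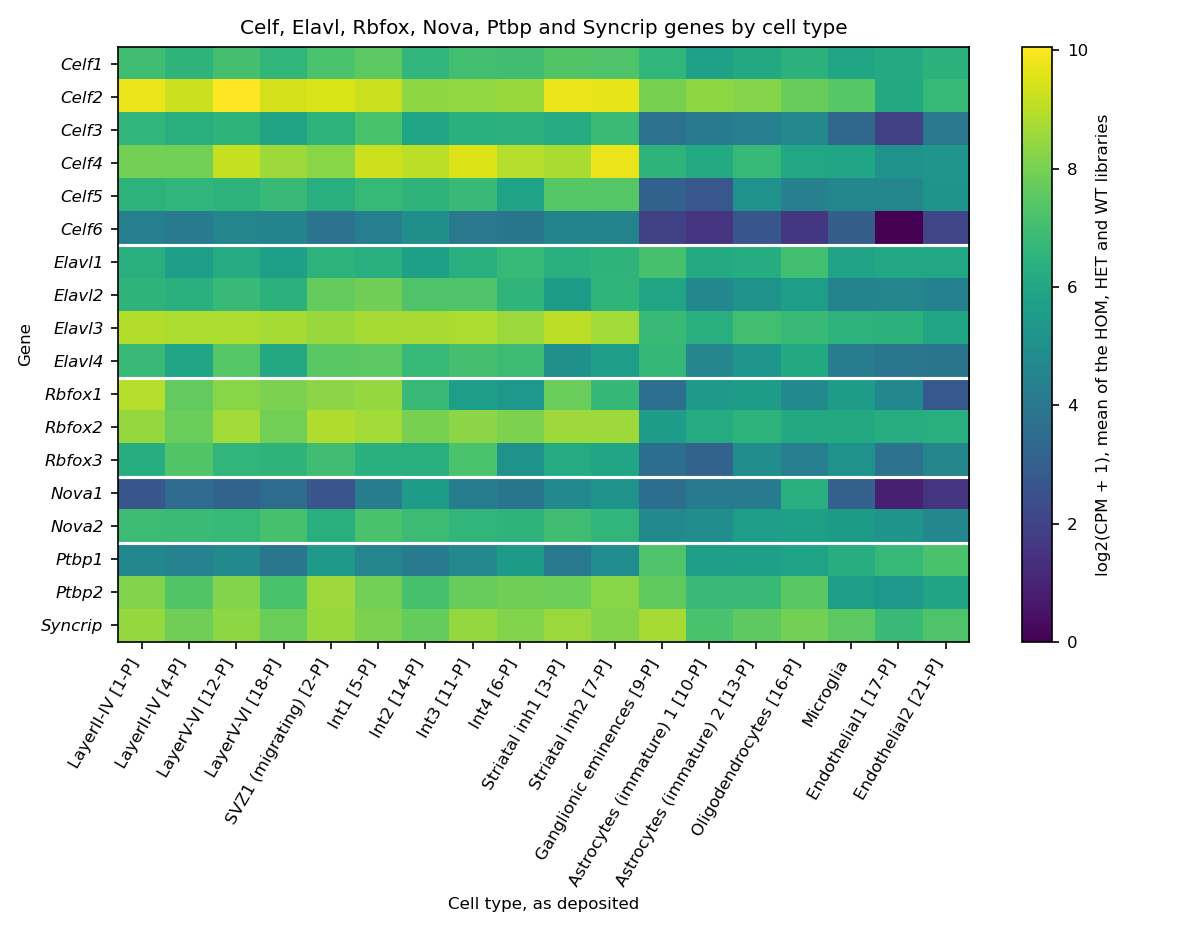
Level of the Celf, Elavl, Rbfox, Nova, Ptbp and Syncrip genes (rows) in the 18 deposited cell types compared (columns), as the mean over the HOM, HET and WT libraries of log2(CPM + 1). Each within its own row, Rbfox1, Celf3 and Elavl3 are brighter in layer, interneuron and striatal types than in Ganglionic eminences and non-neural types. Ptbp1 shows the opposite order, and Nova1 is brightest in Oligodendrocytes [16-P].

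The Nova genes, splicing regulators of synaptic transcripts, differed from each other. Nova2 had 107, 117 and 137 CPM in HOM, HET and WT layer neurons, against 20.7, 28.5 and 29.5 CPM in Ganglionic eminences [9-P], a mean log2 ratio of 2.16. Nova1 was low in layer neurons (7.22, 11.3 and 10.6 CPM) and did not reach the minimum sum over non-neural cells or over Ganglionic eminences [9-P]. Its highest level was in Oligodendrocytes [16-P], at 81.3 CPM (range 69.7 to 92.5), above the next type, Int2 [14-P], at 45.4 CPM (range 38.4 to 58.8).

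Ptbp1 was lower and Ptbp2 higher in layer neurons than in non-neural cells. Ptbp1 had 23.1, 17.8 and 25.0 CPM in HOM, HET and WT layer neurons, against 154, 156 and 158 CPM in Ganglionic eminences [9-P] and 112, 97.0 and 118 CPM in non-neural cells. The layer neurons were lowest in each library, by a mean of 6.90-fold and 4.81-fold. The migrating SVZ1 cells lay between, at 33.4, 43.1 and 51.8 CPM. Ptbp2 had 194, 218 and 255 CPM in layer neurons, against 33.9, 59.7 and 61.0 CPM in non-neural cells, a mean log2 ratio of 2.13. It did not differ by 2-fold from Ganglionic eminences [9-P] (195, 154 and 247 CPM), and it peaked in the migrating SVZ1 cells at 341, 375 and 436 CPM. Syncrip (hnRNP Q, an mRNA transport and translation factor) was past 2-fold in none of the 3 contrasts in all libraries, with mean log2 ratios of 0.91, 0.72 and −0.54.

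Members of the general splicing families were called lower in layer neurons than in the cycling type more often than higher. Of 20 Hnrnp genes 5 were lower there by the call and none higher (median log2 ratio −0.98, mean above 0 for 1). Of 11 Srsf genes 7 were lower and 1 higher (median −1.25), where 8.32% of all genes were lower and 17.6% higher. Hnrnpf, which binds runs of G in exons and introns, was the member lower in all 3 contrasts, as were 1.64% of all genes. It had 159.8, 147 and 142 CPM in HOM, HET and WT layer neurons, against 864, 705 and 598 CPM in Ganglionic eminences [9-P] and 409, 439 and 429 CPM in non-neural cells, with no overlap. Hnrnpa2b1 had 1426, 1182 and 1016 CPM in layer neurons, against 3538, 2909 and 2992 CPM in Ganglionic eminences [9-P], a mean of 2.62-fold lower.

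Among the Srsf genes, Srsf9 had 28.6, 25.1 and 21.8 CPM in HOM, HET and WT layer neurons, against 77.8, 103 and 94.5 CPM in Ganglionic eminences [9-P] and 59.4, 67.1 and 49.8 CPM in non-neural cells. Srsf2, Srsf3, Srsf6 and Srsf7, all exon-binding activators, had mean log2 ratios of −1.34, −1.26, −1.25 and −1.34 to the cycling type and were not called against non-neural cells. The exception was Srsf12, at 20.0, 29.5 and 20.7 CPM in layer neurons, against 1.71, 3.76 and 2.48 CPM in non-neural cells and 1.73, 4.39 and 0 CPM in Ganglionic eminences [9-P]. It was the Srsf gene called higher in layer neurons, at levels in the comparison cells too low for a firm ratio.

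The helicases were mostly shared between the types. Against non-neural cells 2 of 27 Ddx and 1 of 12 Dhx genes were higher in layer neurons and none lower, beside 16.8% and 10.8% of all genes. Ddx25, best known as a helicase of male germ cells, had 61.6, 55.9 and 46.6 CPM in HOM, HET and WT layer neurons, against 13.5, 12.9 and 5.52 CPM in non-neural cells, a mean log2 ratio of 2.34. Ddx55, a ribosome assembly helicase, and Dhx57 had ratios of 1.60 and 1.59. Against Ganglionic eminences [9-P], Ddx39 and Ddx39b, which act in mRNA export, and the spliceosome helicase Dhx15 were lower in layer neurons, with mean log2 ratios of −1.82, −1.23 and −1.03. Ddx39 had 42.3, 50.8 and 41.5 CPM in layer neurons, against 190.1, 162 and 133 CPM in the cycling type. The abundant helicases Ddx5, Ddx24 and Dhx9 differed by less than 2-fold in all 3 contrasts.

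Other genes of RNA processing gave a wider view. Of 33 core spliceosome genes 1 was higher and 3 lower in layer neurons than in Ganglionic eminences [9-P] (median −0.69), and 1 was higher and none lower than in non-neural cells (median 0.27). Of the kinases and partners of SR proteins 2 of 12 were higher than in non-neural cells and 2 of 11 higher than in Ganglionic eminences [9-P]. Of 32 other RNA-binding regulators 6 were higher and 4 lower than in non-neural cells, and 2 higher and 5 lower than in Ganglionic eminences [9-P] (median −0.69). Of all genes 16.8% were higher and 10.8% lower than in non-neural cells, and 17.6% and 8.32% than in Ganglionic eminences [9-P]. The medians of the core spliceosome, Hnrnp and Srsf genes against the cycling type were all below 0, where that of all genes was 0.27.

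Depth differed between types: the median was 1307.5, 947 and 861 molecules in HOM, HET and WT layer neurons, against 6050.0, 4031.5 and 3544.5 in Ganglionic eminences [9-P]. In cells with at least 2000 molecules, the mean log2 ratios to Ganglionic eminences [9-P] were −2.82 for Ptbp1, −2.47 for Hnrnpf and 5.88 for Rbfox1. Ratios to non-neural cells were 5.39 for Rbfox1, 4.87 for Elavl3 and 4.53 for Celf4. RNA from broken cells that enters droplets was not estimated. Among non-neural cells with 1000 to under 2000 molecules, Elavl3 was above 0 in 9.30% of 172 HOM, 15.3% of 137 HET and 14.8% of 88 WT cells, against 44.0%, 44.9% and 43.9% of layer neurons of that depth. With 2000 to under 4000 molecules the non-neural shares were 8.82%, 1.49% and 3.77%. Nova2 showed no such fall, with 5.81%, 5.11% and 6.82% of HOM, HET and WT non-neural cells in the shallower window. In the deeper one it had 6.86%, 5.97% and 7.55%. Whether low levels of neuronal members in microglia and endothelium are their own expression was not tested.

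Genotypes were compared in the 4 types of layer II to VI neurons (4706 HOM, 5123 HET and 4296 WT cells). A member was called where the mean of its 4 log2 ratios was at least 0.32 in size and all 4 types had the same sign. HET and HOM were both set against the same WT library, so the comparisons with WT are not independent. Counts of cell types given below include the 4 layer types, whose shared sign a call required. Types of 1 library are not replicates, and such counts were not taken over all genes. In HOM against WT more members were lower than higher in every type compared, though by 33 to 32 in LayerV-VI [12-P]. The median of all genes was below 0 in most of these types as well. In LayerII-IV [1-P] it was −0.13, beside −0.11 for the members, and in Ganglionic eminences [9-P] −0.09, beside −0.27. In HOM against WT, 17 of 63 members passing the filter were lower and 3 higher, where 17.1% and 11.2% of all 3390 genes were called lower and higher. The median log2 ratio was −0.14 for the members and −0.03 for all genes. In HET against WT, 8 of 63 were lower and 1 higher, beside 12.5% and 7.23% of 3249 genes, so the lower calls were near the background and the higher ones under it. In HOM against HET, 6 of 69 were lower and 4 higher, beside 5.30% and 3.79% of 4094 genes, with a median of 0.00. Both shares lay a little above the background, on few genes. Other scalings moved the split in both comparisons with WT: with TMM scaling HOM had 11 lower and 9 higher members and HET 3 lower and 4 higher, where all genes had 336 lower and 737 higher calls in HOM and 237 lower and 500 higher in HET, since that scaling raised the median of all genes by 0.12 and 0.09. Over 7 scalings and pseudocounts, 11 of the 17 lower and all 3 higher calls in HOM against WT were kept, and 3 of 8 lower and the 1 higher call in HET against WT. In cells with at least 2000 molecules 27 members passed the filter in HOM against WT, of which 1 was called lower and 6 higher, where 9.11% and 27.7% of all 1032 genes were, so the higher calls were not above the background.

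**Figure D3:**
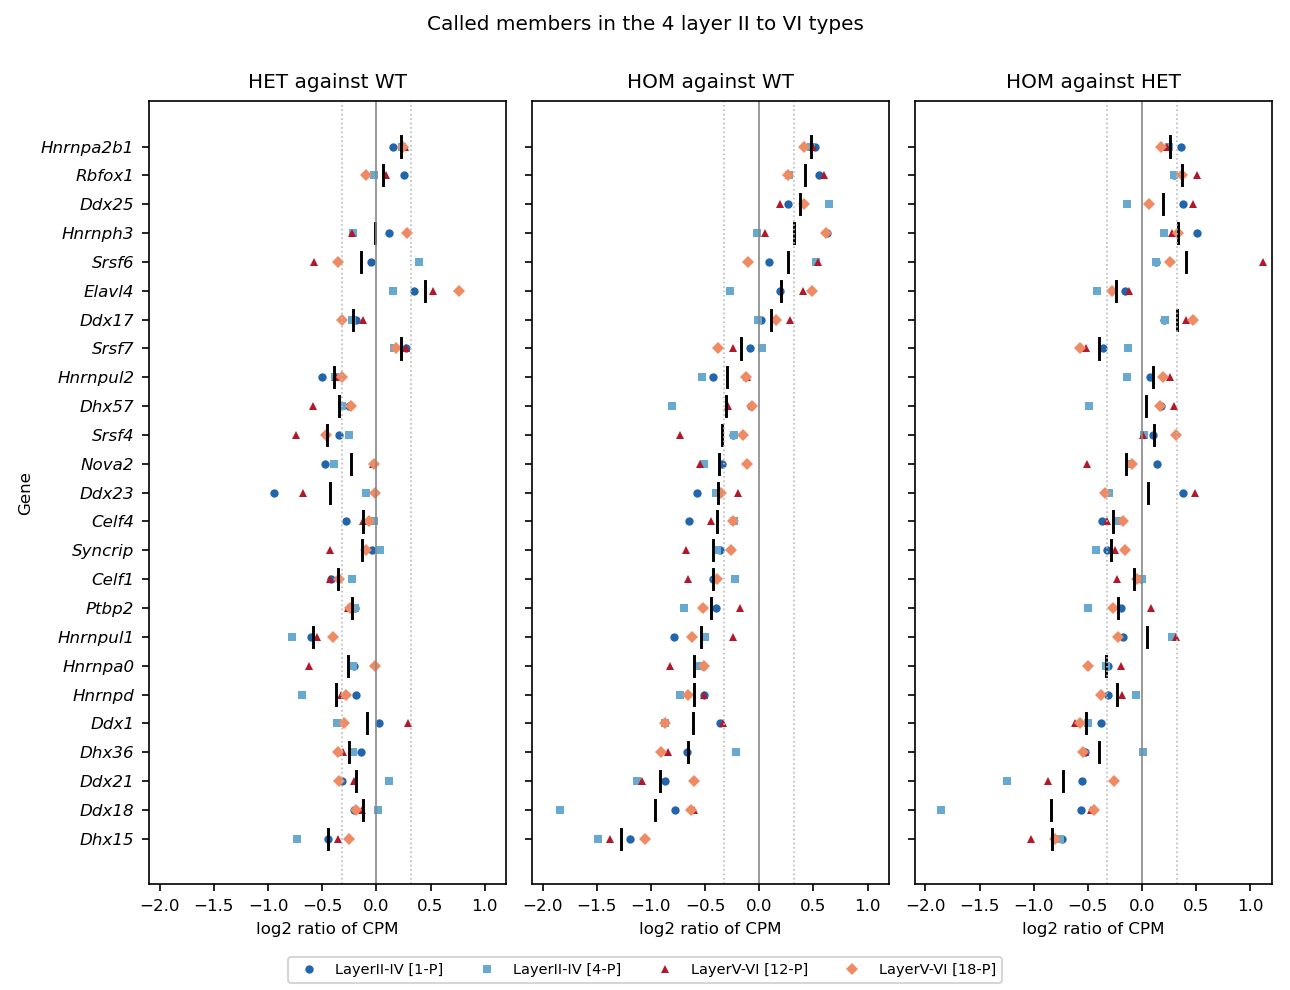
Log2 ratio of CPM in the 4 layer II to VI types for named members called in at least 1 comparison, for HET against WT, HOM against WT and HOM against HET. Symbols are the 4 cell types, black bars their mean, dotted lines mark 0.32 in either direction, and genes are ordered by HOM against WT; Dhx15 is lowest and Hnrnpa2b1 highest in that panel. Each ratio compares 1 library with 1 library.

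Dhx15, the DEAH helicase that takes the spliceosome apart after splicing, had the largest difference of the 63 members measured in HOM against WT (chr5:52150203-52190514, minus strand, GRCm38). It had 65.8 CPM in HOM, 119 CPM in HET and 160.4 CPM in WT layer neurons. The ratios of HOM to WT in the 4 layer types were −1.19, −1.49, −1.38 and −1.05 on the log2 scale, a mean of −1.28 (SD 0.20 over types), and HET to WT gave −0.45, −0.73, −0.35 and −0.25, a mean of −0.45. HOM was lower than HET in each layer type as well, with a mean of −0.83. The 3 libraries stood in the same order, HOM lowest and WT highest, in all 4 layer types. Over all cell types, layers included, Dhx15 was lower in HOM than in WT in each of the 16 measured, between −2.07 in Astrocytes (immature) 1 [10-P] and −0.15 in Int2 [14-P], and lower in HET than in WT in 16 of 18. Over the scalings and pseudocounts its mean ratio of HOM to WT ranged between −1.33 and −1.15.

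Ddx18 and Ddx21 are nucleolar helicases of ribosome assembly. Ddx18 (chr1:121553835-121567989, minus strand) had 42.5 CPM in HOM, 69.1 CPM in HET and 76.0 CPM in WT layer neurons. Its HOM to WT ratios were −0.77, −1.84, −0.61 and −0.63, with the largest gap in LayerII-IV [4-P], and it was lower in HOM in 14 of 14 types. Ddx21 (chr10:62580251-62602281, minus strand) had 53.3 CPM in HOM, 89.1 CPM in HET and 102 CPM in WT layer neurons. Its ratios were −0.87, −1.13, −1.08 and −0.60, and it was lower in HOM in 13 of 13 types. Both were also lower in HOM than in HET in all 4 layer types, with means of −0.84 and −0.73, and neither was called in HET against WT. Of the 4 ribosome assembly helicases that passed the filter 3 were lower in HOM than in WT (median −0.76), beside 17.1% of all genes. The other 11 of that list of 15 did not pass the filter.

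MYT1L binds DNA at the motif AAAGTT. The 250 bases before the RefSeq transcription starts (GRCm38.p6, read 5′ to 3′ on the strand of the gene) are shown for 2 lower genes and for the 2 listed starts of Rbfox1, a higher gene, with each AAAGTT or its reverse complement AACTTT in capitals; these genes were chosen after their values were seen. Dhx15 (chr5:52190547-52190796, minus strand) has a match 210 bases before the start. Ddx18 (chr1:121567981-121568230, minus strand) has none, and neither has Ddx21. The starts of Rbfox1 (chr16:5884543-5884792 and chr16:7069585-7069834, plus strand) have a match 31 and 39 bases before them.
Dhx15: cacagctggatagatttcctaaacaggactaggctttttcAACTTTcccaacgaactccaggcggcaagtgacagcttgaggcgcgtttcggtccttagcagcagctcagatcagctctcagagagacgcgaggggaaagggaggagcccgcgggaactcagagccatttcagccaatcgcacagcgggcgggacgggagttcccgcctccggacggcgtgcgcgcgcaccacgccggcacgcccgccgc
Ddx18: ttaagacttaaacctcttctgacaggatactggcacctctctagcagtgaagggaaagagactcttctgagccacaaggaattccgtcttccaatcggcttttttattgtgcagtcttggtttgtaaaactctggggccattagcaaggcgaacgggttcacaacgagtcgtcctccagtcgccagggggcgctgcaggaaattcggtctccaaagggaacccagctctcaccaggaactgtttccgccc
Rbfox1 start 1: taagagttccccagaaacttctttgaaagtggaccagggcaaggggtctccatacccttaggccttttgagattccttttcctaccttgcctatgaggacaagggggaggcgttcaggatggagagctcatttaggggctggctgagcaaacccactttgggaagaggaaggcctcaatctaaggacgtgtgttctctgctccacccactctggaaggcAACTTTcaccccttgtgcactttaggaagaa
Rbfox1 start 2: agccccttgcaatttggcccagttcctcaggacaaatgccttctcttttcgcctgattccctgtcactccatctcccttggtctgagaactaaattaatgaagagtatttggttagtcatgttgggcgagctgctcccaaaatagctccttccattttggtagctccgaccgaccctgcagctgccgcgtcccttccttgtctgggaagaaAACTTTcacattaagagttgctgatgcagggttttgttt
The motif, on either strand, is in 4089 of 32851 such windows of all genes (12.4%) and in 9 of 137 windows of the 90 members found in the table (6.57%). A match is a description of the letters and not a binding site.

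**Figure D4:**
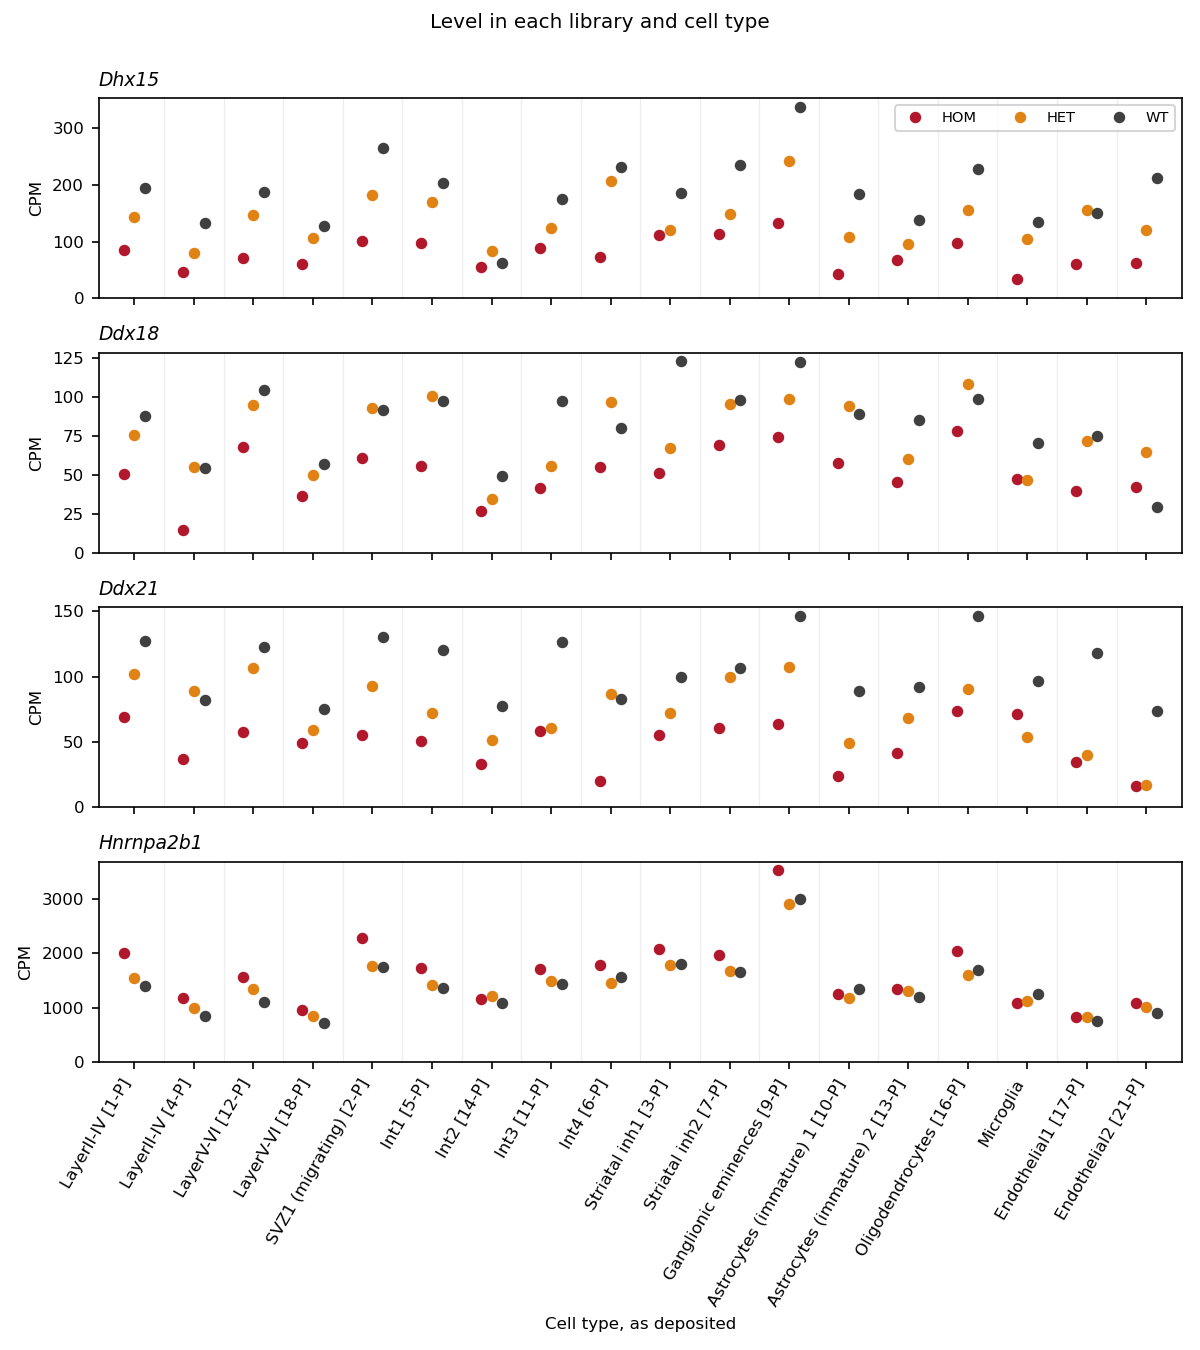
CPM of Dhx15, Ddx18, Ddx21 and Hnrnpa2b1 in the 18 cell types compared, each point being 1 library (HOM, HET or WT). The HOM points of Dhx15 lie below the WT points in every type, the HOM points of Ddx18 and Ddx21 lie below WT in the 4 layer types, and Hnrnpa2b1 is highest in Ganglionic eminences [9-P]; points of types with few cells, such as Endothelial2 [21-P], rest on fewer counts.

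Further helicases were lower in HOM. Ddx1, which works in tRNA splicing and RNA transport granules, had 107 CPM in HOM, 153 CPM in HET and 163 CPM in WT layer neurons. It was lower in HOM than in WT in 16 of 16 types and lower than in HET in 15 of 15, with layer means of −0.61 and −0.52. Dhx36, which unwinds G-quadruplexes, had 55.6, 75.1 and 89.9 CPM in HOM, HET and WT layer neurons, a mean ratio of −0.65 against WT. Ddx23, a helicase of the U5 particle, was lower in both HOM (−0.38) and HET (−0.43), calls kept in 4 of 7 scalings and pseudocounts each, and its HOM to WT ratio in layer cells with a Y-linked transcript was 1.00. Of 7 measured helicases of splicing and mRNA processing 3 were lower in HOM than in WT and none higher, with a median of −0.23. Of all genes 17.1% were lower and 11.2% higher.

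Among the hnRNP genes, Hnrnpd (AUF1, which promotes decay of mRNAs with AU-rich elements) had 92.1 CPM in HOM, 109 CPM in HET and 139.5 CPM in WT layer neurons. It was lower in HOM than in WT in 16 of 16 types (layer mean −0.60), and in HET the layer mean was −0.37, not called under TMM or median-of-ratios scaling. Hnrnpa0 had 103, 129.7 and 159 CPM in HOM, HET and WT layer neurons, and was lower in HOM than in WT in 16 of 16 types. Hnrnpul1, linked to DNA repair as well as to RNA, had 74.9 CPM in HOM, 72.0 CPM in HET and 109 CPM in WT layer neurons. Here HOM and HET lay side by side below WT, with layer means of −0.54 and −0.58. Among layer cells with 2000 to under 4000 molecules, though, the share above 0 was close in HOM and WT, as given below. Hnrnpul2 and Srsf4 were called lower in HET (−0.40 and −0.45), and Srsf4 also in HOM (−0.34, kept in 4 of 7 scalings and pseudocounts).

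Several regulators of neuronal transcripts were also called. Ptbp2 had 194 CPM in HOM, 218 CPM in HET and 255 CPM in WT layer neurons, and was lower in HOM than in WT in 15 of 15 types (layer mean −0.45). Celf4 had 309.5, 373 and 406 CPM in HOM, HET and WT layer neurons, and was lower in HOM in 14 of 14 types (−0.39). Syncrip had 239, 293 and 325 CPM in the same order and a layer mean of −0.42. Celf1 was called lower in both HOM (−0.43) and HET (−0.35), Nova2 in HOM (−0.38) and Dhx57 in HET (−0.35). Of these, only Ptbp2 kept its call in all 7 scalings and pseudocounts; under TMM and median-of-ratios scaling Celf4, Syncrip, Nova2 and Celf1 in HOM, and Celf1 and Dhx57 in HET, were not called. Once the trend over length was taken out, the HOM to WT means of Celf1, Nova2 and Syncrip were −0.17, −0.09 and −0.15 and that of Celf4 −0.30, none of them called, nor was Dhx36 (−0.44), while that of Dhx15 stayed at −1.28.

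Higher in HOM than in WT were Hnrnpa2b1, Rbfox1 and Ddx25. In layer cells with a Y-linked transcript, summed over the 4 types, their ratios were 0.02, 0.35 and −0.10, so the difference was not seen for Hnrnpa2b1 and Ddx25 there. Hnrnpa2b1 (chr6:51460932-51469894, minus strand) had ratios of 0.52, 0.48, 0.50 and 0.42 in the 4 layer types, a mean of 0.48, and was higher in HOM in 16 of 18 types. In HET its layer mean was 0.22, below the call, with the same sign in all 4 types. Rbfox1 (chr16:5885355-7411526, plus strand) had a mean ratio of 0.42 against WT and 0.37 against HET, and was higher in HOM than in WT in 10 of 11 types. In HET against WT it was 0.06, with both signs among the layer types. The other Rbfox genes were not called: Rbfox3 had a mean of 0.40 in HOM against WT, with a negative value in LayerV-VI [18-P], and Rbfox2 had 0.06.

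Elavl4 was the member called higher in HET. It had 102 CPM in HOM, 117 CPM in HET and 85.0 CPM in WT layer neurons, with HET to WT ratios of 0.35, 0.15, 0.52 and 0.77 and a mean of 0.45. Over all cell types, layers included, it was higher in HET in 8 of the 13 measured. The other Elavl genes had means between −0.11 and 0.02 in HET against WT. In HOM against HET the calls not yet named were Srsf6 (0.41, of which LayerV-VI [12-P] alone gave 1.12), Hnrnph3 (0.33) and Ddx17 (0.32) on the higher side, and Srsf7 (−0.39) and Hnrnpa0 (−0.34) on the lower side; those of Hnrnph3, Ddx17 and Hnrnpa0 were kept in 5, 4 and 4 of 7 scalings and pseudocounts. Srsf7 had 229 CPM in HOM, 305 CPM in HET and 257 CPM in WT layer neurons, so HET stood highest.

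The other lists gave no uniform picture. Of all genes 11.2% were called higher and 17.1% lower in HOM against WT, and 7.23% and 12.5% in HET against WT. Core spliceosome genes measured in HOM against WT numbered 29, of which 3 were higher and 2 lower (median −0.03). In HET against WT 1 of 30 was higher and 5 lower (median −0.05). Kinases and partners of SR proteins had 1 of 7 higher in HOM and 1 of 9 lower in HET. Of 21 other RNA-binding regulators 1 was higher and 3 lower in HOM than in WT, and none higher and 2 lower in HET than in WT.

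HOM layer neurons had a higher median of molecules per cell than those of HET and WT. Shares of layer neurons with a value above 0 were therefore compared among cells of matched depth, with exact Clopper-Pearson 95% intervals. The intervals cover counting error within 1 library per genotype, so they describe these libraries and test no genotype difference. Among cells with 1000 to under 2000 molecules (778 HOM, 946 HET and 775 WT), Dhx15 was above 0 in 8.48% (6.62 to 10.7) of HOM, 13.5% (11.4 to 15.9) of HET and 18.7% (16 to 21.6) of WT cells. Among cells with 2000 to under 4000 molecules (597, 531 and 408) the shares were 11.9% (9.41 to 14.8) in HOM, 20.3% (17 to 24.0) in HET and 24.8% (20.6 to 29.2) in WT. In both windows the HOM library had the lowest share. Ddx1 was above 0 in 13.1% (10.8 to 15.7) of HOM, 17.9% (15.5 to 20.5) of HET and 19.7% (17 to 22.7) of WT cells in the shallower window, and in 16.9% (14 to 20.2) of HOM, 25.4% (21.8 to 29.4) of HET and 25.0% (20.9 to 29.5) of WT cells in the deeper window.

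The other genes shown varied more at matched depth. Ddx21 was above 0 in 8.48%, 8.35% and 12.9% of HOM, HET and WT cells in the shallower window, and in 14.1%, 17.3% and 22.1% in the deeper one. Ddx18 was above 0 in 5.78%, 5.92% and 8.39% in the shallower window and in 9.72%, 14.5% and 15.7% in the deeper one. Celf4 was above 0 in 26.7%, 33.8% and 35.2% in the shallower window and in 32.5%, 42.0% and 43.4% in the deeper one, so the HOM library was lowest in each. Hnrnpa2b1 was above 0 in 71.6%, 67.7% and 63.0% in the shallower window and in 81.4%, 72.9% and 72.3% in the deeper one. Hnrnpul1 was above 0 in 9.64%, 8.46% and 15.1% in the shallower window. In the deeper one it had 15.7%, 12.8% and 16.4%, so HOM and WT were close there. In the deeper window Rbfox1 had 47.7%, 40.3% and 41.9% and Elavl4 17.6%, 20.2% and 15.9%, with overlapping intervals. The shallower window gave Rbfox1 28.0%, 26.0% and 27.4% and Elavl4 10.7%, 11.4% and 9.94%, again with overlapping intervals. The values behind these shares are depth-corrected, and no cell type lacks the broadly expressed helicases, so a background share could not be measured for them.

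**Figure D5:**
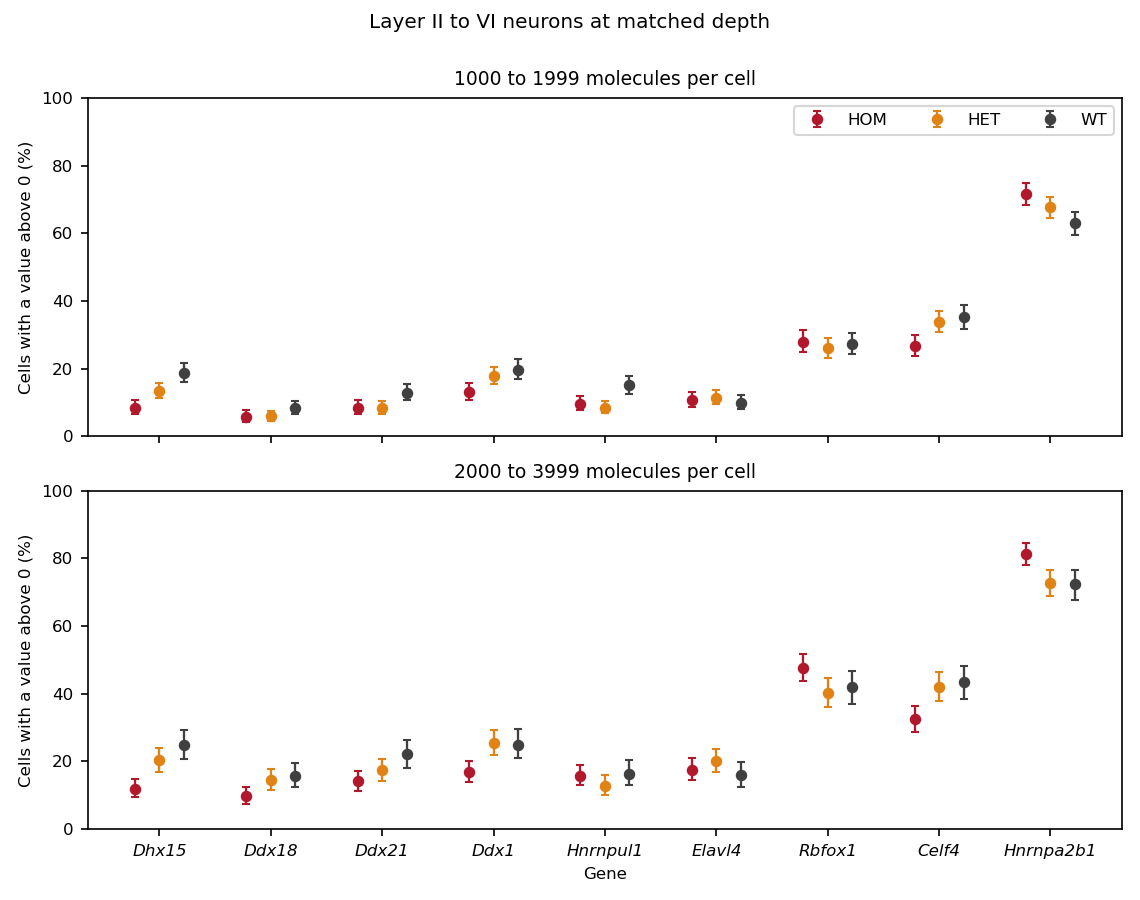
Percent of layer II to VI neurons with a value above 0 for 9 members, in HOM, HET and WT cells with 1000 to under 2000 molecules (top) and with 2000 to under 4000 molecules (bottom). Bars are exact Clopper-Pearson 95% intervals over the cells of 1 library each, covering counting error only; Dhx15 is lowest in the HOM library in both windows.

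The sex mix could be held closer by using only cells with a Y-linked transcript, at the cost of depth. With the 4 layer types summed in such cells, the HOM to WT ratio was −0.92 for Dhx15, −0.94 for Ddx18 and −0.67 for Ddx1, against −1.19, −0.74 and −0.58 in all layer cells. It was −0.06 for Ddx21 and 0.02 for Hnrnpa2b1, against −0.83 and 0.51 in all layer cells. The HET to WT ratio of Dhx15 was −0.01 in those cells, against −0.49 in all. The part of the sex mix in the differences of Ddx21 and Hnrnpa2b1 was not tested further. In cells with at least 2000 molecules the HOM to WT ratios were −1.42 for Dhx15, −1.07 for Ddx21, −0.98 for Ddx18, 0.46 for Hnrnpa2b1 and 0.48 for Rbfox1.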

How the data were processed

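Per the labels, the authors ran Cell Ranger 4.0.0 on the mm10 genome, joined the runs of each library, and used Seurat 4.0, Scanpy and a transfer of type labels from an atlas to name cells. Values in the deposited matrix are whole numbers treated here as a score, not as raw counts: their total per cell was between 825 and 1952, although the cells held 499 to 17602 molecules, so depth had been evened out before deposit. No count model was fitted, since each genotype was 1 library and the values are not raw counts. In the deposited cell table, molecules per cell are counts, mitochondrial content is a percent and the certainty of the type label is a fraction. Tables of the authors' own genotype comparisons (fold changes and p-values) were not used. No doublet caller was run, and the study's treatment of doublets was not found in the sources used here.

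Values were summed per library and cell type and scaled to 1000000 (CPM). Log2 ratios used a pseudocount of 1 CPM and, for genotypes, a sum of at least 50 over both libraries in each of the 4 layer types. Ratios between cell types used mean CPM over types. Ratios on this scale understate the change of low genes. Python 3.11.15, numpy 2.4.6, pandas 2.3.3 and scipy 1.17.1 were used, and the steps were tested on simulated data. Positions and transcript lengths are from GENCODE for GRCm38, promoter windows from RefSeq. Named genes were the Celf, Elavl, Rbfox, Nova, Ptbp and Syncrip members, the 3 most abundant of each larger family and, in each comparison, the 6 highest and 6 lowest. The members, lists and rules were chosen with earlier results of these data known. Alternatives were other scalings, pseudocounts, minimum sums, fold thresholds, deeper cells, cells with a Y-linked transcript and removal of the length trend; summing the 4 layer types was added after seeing the data.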

Additional observations from a re-analysis of the deposited data

Results flagged for a closer look

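Ddx6, a helicase of mRNA decay bodies, had opposite signs in layer neurons and interneurons of HET in the reported setting. It was chosen after its values were seen. Its mean log2 ratio of HET to WT was −0.074 over the 4 layer types, all negative, and 0.12 over the 4 interneuron types Int1 to Int4, all positive. Over the 7 scalings and pseudocounts the layer mean ranged from −0.10 to 0.018, so its sign was not kept. The difference between the cell classes was not tested, since each genotype was 1 library.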

How the results depend on the processing

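No paired analysis was possible because each genotype was captured as 1 library, and for the same reason none was left out. The counts and medians below are of members in layer neurons.

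For HET against WT (8 lower, 1 higher, median −0.11), TMM scaling gave 3 lower, 4 higher and a median of −0.022, and median-of-ratios scaling 4 lower, 2 higher and −0.042. Totals without technical genes gave a median of −0.14, per-cell means 2 higher, and a minimum sum of 20 gave 2 higher. A minimum sum of 200 left 26 members, with 0 lower, 0 higher and −0.027. Cells with at least 2000 molecules left 27 members, with 1 lower and −0.030, and cells with a Y-linked transcript left 10, with 1 lower, 0 higher and −0.20. Without the length trend 3 were lower, 2 higher and the median was 0.0094. At 1.5-fold none was lower or higher (0 and 0). With layer types summed the median was −0.21 among cells of at least 2000 molecules and −0.17 among Y-linked cells.

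For HOM against WT (17 lower, 3 higher, median −0.14), TMM and median-of-ratios scaling each gave 11 lower and 9 higher, with medians of −0.015 and −0.021. Totals without technical genes gave −0.19. A minimum sum of 200 left 26 members, with 3 lower and a median of 0.0029. Cells with at least 2000 molecules left 27, with 1 lower, 6 higher and 0.00059, where 94 of 1032 genes were lower, 286 higher and the median of all genes was 0.15, and Y-linked cells left 5, with 0 lower, 0 higher and −0.014. Without the length trend 11 were lower, 6 higher and the median was 0.013. At 1.5-fold 8 were lower and 0 higher.

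For HOM against HET (6 lower, 4 higher, median 0.00), median-of-ratios scaling gave a median of 0.048, and 2 were higher with totals without technical genes and with a pseudocount of 10 CPM. A minimum sum of 200 left 30 members, with 1 lower and 2 higher. Cells with at least 2000 molecules left 33, with 2 lower and 0.17, and Y-linked cells left 16, with 2 lower and 0 higher. At 1.5-fold 3 were lower and 0 higher. With layer types summed the median was 0.061 among cells of at least 2000 molecules and 0.068 among Y-linked cells.

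Between cell types, a minimum sum of 200 left 1 member lower than in non-neural cells (3 in the reported setting) and 1.5-fold gave 31 higher (19). Lower than in astrocytes (1) were 2 with TMM and with median-of-ratios scaling, 0 with per-cell means, 5 in cells with at least 2000 molecules and 6 at 1.5-fold. Lower than in Ganglionic eminences [9-P] (16) were 26 with TMM scaling and 32 at 1.5-fold.

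Sign changes were seen in cells with a Y-linked transcript: with layer types summed, Hnrnpul2 was 0.0099 in HET against WT, and Ddx23 was 1.00 and Ddx25 −0.10 in HOM against WT; as a mean of types, Hnrnpa2b1 was −0.014 in HOM against WT. The cause was not tested. Over the named genes 1534 values under other settings were counted as the same, 255 as moved and 4 as reversed. Further members near 0 had both signs over the 7 scalings and pseudocounts, such as Elavl3 in HOM against WT (−0.091 to 0.081) and Celf2 in HET against WT (−0.063 to 0.057). Few cells with a Y-linked transcript in WT (603 in all types) limit these values.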
